A study of Mus musculus with 30 samples.

Results

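Callus tissue of diet-induced obese (DIO) mice was compared between days 21 and 14 after fracture (d21 and d14), with 3 libraries on each day, so 6 of the 30 libraries of the series were used. All 6 mice were male C57BL/6J, had been fed a high-fat diet and were fractured at about 20 weeks of age by an open osteotomy of the right tibia, which was held by an intramedullary nail. A library was made from the poly(A) RNA of 1 callus, which had been freed of the soft tissue around it and of the intact bone beside it. The 3 libraries of a day are labelled as biological repeats, and each mouse gave 1 callus. The changes below describe obese mice only, since lean mice of these days were not analysed here. The model is limited to males of 1 strain, made obese by diet. The 12 other DIO libraries (d3, d5, d7 and d10) shared the fit, and d21 was set beside d10 as a supporting comparison. It shares the d21 libraries with the main one.

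A fracture callus forms first as granulation tissue and cartilage, and the cartilage is then replaced by woven bone. Osteoclasts later remodel the woven bone and the marrow cavity opens again, so that blood-forming tissue returns to the site. In marrow, red cell precursors pass through rapid divisions while they load haem into globin. Granulocyte precursors fill first their azurophil and then their specific granules with proteins, and much of the mRNA for these is lost in the mature cell. Some genes on the granule lists below are also expressed by mature neutrophils, which reach a wound by the blood. A rise of such a list therefore does not by itself tell precursors from mature cells.

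Of the 43629 genes in the table, 16995 had enough counts to be tested. Of these, 3335 (19.6%) differed between the days at an adjusted p under 0.05 in the quasi-likelihood F-test of edgeR. Higher on d21 were 1800 (10.6%), where the median log2 fold change was 0.93, and lower were 1535 (9.03%), with a median of -0.82. A rise of more than 4-fold was found for 127 genes and a fall of that size for 68. The median over all genes tested was -0.03. A value after ± is the standard error of a log2 fold change, from 3 libraries a day and the spread of all 18. The balance of rises and falls depended on the scaling: 53.97% of the genes called were higher with the TMM factors used here, and 38.2% with upper-quartile factors, under which the median of all genes was -0.13. Total counts of the 6 libraries ran from 16339791 to 18854426, so depth was even.

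The libraries of a day were not alike. On the first principal component of the 6 libraries, which held 52.2% of the variance, the d14 libraries lay at -48.1, -40.0 and -47.8 and the d21 libraries at 83.6, 9.59 and 42.7, so replicate 2 of d21 stood nearest to d14. The number of genes called was 3335 with all 6 libraries. It was 1285 without replicate 1 of d21, 1762 without replicate 1 of d14 and 1594 without replicate 3 of d14, and it was 4070 without replicate 2 of d21. Muscle genes varied more than any other list: the mean log2 CPM of 34 genes of skeletal muscle contraction was 7.82, 8.97 and 6.89 in the d14 libraries and 3.69, 8.12 and 6.28 in the d21 libraries. Replicate 2 of d14 held the most muscle RNA and replicate 1 of d21 the least. Replicates 1 and 2 of d21 also shared high levels of 23 genes, Per1 and Dusp1 among them, that replicate 3 did not have, and these are given last. Bone markers were abundant in all 6 libraries, with Col1a1 between 11420 and 38110 CPM. In bulk tissue, fewer cells of a type and less RNA per cell cannot be told apart, and this holds for every list below.

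**Figure D1:**
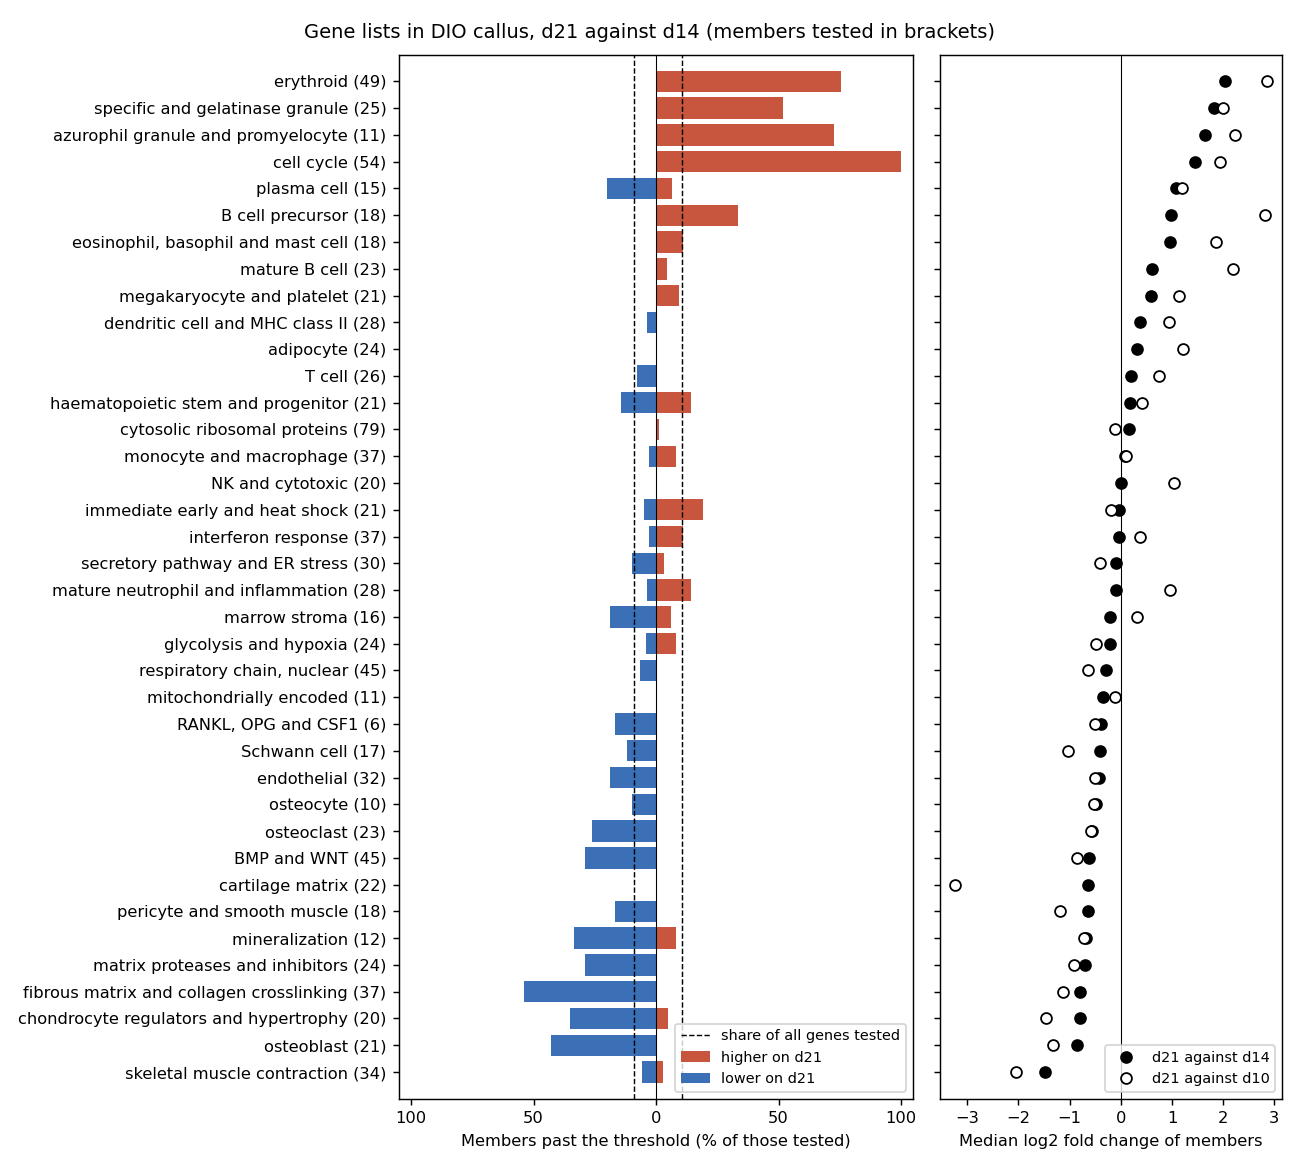
Left, share of the tested members of 38 gene lists that were higher (red) or lower (blue) on d21 than on d14 in DIO callus, with dashed lines at the share of all genes tested (10.6% higher and 9.03% lower). Right, median log2 fold change of the members, d21 against d14 (filled) and against d10 (open). Erythroid, granule and cell cycle lists stand at the top and skeletal lists at the bottom.

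The 12 largest rises among genes with a mean of at least 5 CPM (read counts scaled to the size of the library) on the higher day and no overlap between the days were led by Krt83, a hair keratin gene, which read 0.111, 0.711 and 0.0530 CPM on d14 and 13, 2.30 and 1.04 CPM on d21. Replicate 1 of d21 was far above the other libraries, and the call (adjusted p = 0.00784) was lost without it. Trim58, a ubiquitin ligase gene of late erythroblasts, read 1.77, 3.67 and 0.371 CPM on d14 and 15.7, 21.2 and 15.3 CPM on d21 (log2 fold change 3.17 ± 0.79 (SE), adjusted p = 0.0114). Its call and that of Tmcc2 were kept whichever of the 6 libraries was left out. Tmcc2 read 77.4, 198 and 33.7 CPM on d14 and 612, 552 and 666 CPM on d21 (log2 fold change 2.57 ± 0.57, adjusted p = 0.00624), a 5.92-fold rise. Hbq1b, a theta globin gene, rose with a log2 fold change of 2.62. Tnfrsf14, which encodes a lymphocyte receptor of the TNF receptor family, read 10.4, 13.8 and 4.08 CPM on d14 and 57.9, 18.5 and 92.1 CPM on d21, where replicate 2 was close to the highest d14 library. Another 6 were Apol8, F930017D23Rik, Btnl10, Sowaha, Ccdc92b and Samd11, with log2 fold changes between 2.48 and 2.69. The calls of these 6, of Hbq1b and of Tnfrsf14 were each lost without replicate 3 of d14, the library of the lowest erythroid level, and each also without 1 to 3 others.

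The 12 largest falls under the same rule held skeletal regulators. Panx3, a channel gene of hypertrophic chondrocytes and osteoblasts, read 128, 56.2 and 198 CPM on d14 and 20.9, 24.8 and 25.1 CPM on d21 (log2 fold change -2.43 ± 0.45, adjusted p = 0.00190). The d21 libraries were within a few CPM of each other and all under the lowest d14 library. Sox9, the master regulator of the chondrocyte, read 10.3, 6.58 and 10.1 CPM on d14 and 1.27, 1.89 and 4.06 CPM on d21 (log2 fold change -1.89, adjusted p = 0.00186). Hey1, a target of NOTCH and BMP signals, fell with a log2 fold change of -2.04 (adjusted p = 0.000906). Frzb, a secreted WNT antagonist of cartilage, and Gpc3, a glypican, had log2 fold changes of -1.86 and -2.34. Lrrc55, Meox2, Map3k21 and the unnamed genes Gm15663 and Gm47283 fell with log2 fold changes of -2.47, -2.02, -1.87, -2.27 and -2.19. These 10 calls were kept whichever of the 6 libraries was left out. Fabp3 and Fbp2, muscle genes of fatty acid transport and gluconeogenesis, fell with log2 fold changes of -1.99 and -1.94, and both calls were lost without replicate 1 of d21 or replicate 2 of d14, the libraries with the least and the most muscle RNA. That of Fbp2 was also lost without replicate 3 of d21 or replicate 1 of d14.

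**Figure D2:**
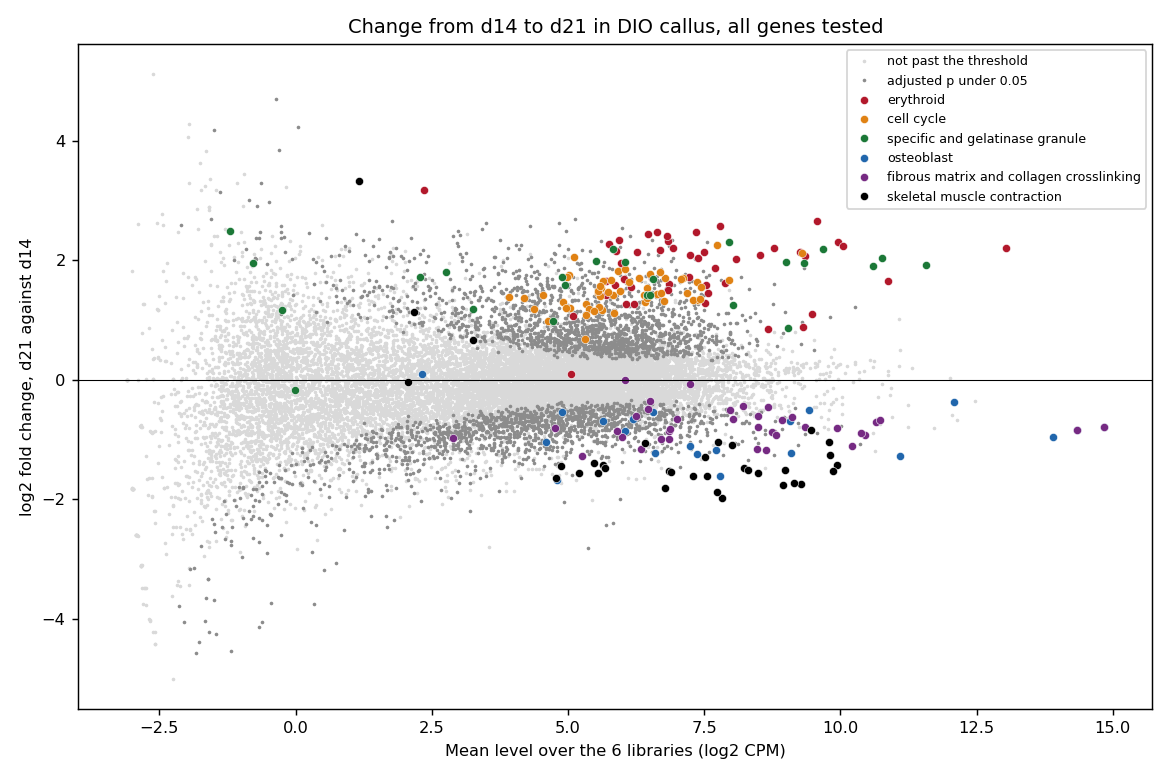
Log2 fold change of d21 against d14 (vertical axis) by mean level in log2 CPM over the 6 libraries (horizontal axis) for the 16995 genes tested, with genes past the threshold in dark grey and 6 lists in colour. Erythroid, cell cycle and nearly all granule genes lie above 0. Fibrous matrix, nearly all osteoblast and most muscle genes lie below it.

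Genes of red cell formation rose together. Of 50 listed genes, 49 were tested, and 37 were higher on d21 (75.5%, against 10.6% of all genes tested in that direction), with none lower. Their median log2 fold change was 2.03, against -0.03 for all genes. Averaged over the list, log2 CPM stood at 6.10, 7.18 and 5.70 in the d14 libraries and 8.45, 8.18 and 8.35 in the d21 libraries. The d21 libraries lay close together, whereas replicate 2 of d14 stood about 1 log2 unit above the others of its day. Without replicate 3 of d14 the count fell to 17, without replicate 1 of d14 to 18 and without replicate 1 of d21 to 23, and without replicate 2 of d14 it was 42.

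Of the 4 adult globin genes 3 were higher, and none was without replicate 1 of d21, 1 of d14 or 3 of d14. Their sum was 4201, 11530 and 3572 CPM on d14 and 34250, 23550 and 26760 CPM on d21. Hbb-bs, the major beta globin gene here, read 2820, 7689 and 2334 CPM on d14 and 25430, 14890 and 18880 CPM on d21 (log2 fold change 2.2 ± 0.62, adjusted p = 0.0205). Hbb-bt rose with a log2 fold change of 2.24 and Hba-a2 with 2.31. Hba-a1 read 707, 2065 and 659.9 CPM on d14 and 3128, 4144 and 3486 CPM on d21 and missed the threshold (adjusted p = 0.0853). The 2 alpha globin genes are near-identical copies, as are the 2 beta genes in large part, so the split of reads between them is uncertain.

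Genes of haem synthesis and iron import gave the firmest calls of the list, with 13 of 14 higher. Enzymes along the path from Alas2 to Fech passed, with log2 fold changes of 2.14 (Alas2), 1.71 (Alad), 1.27 (Uros), 1.45 (Urod), 1.69 (Cpox), 1.28 (Ppox) and 1.62 (Fech). The exception among the 14 was Steap3, a reductase that frees iron for the cell, with 0.10 ± 0.21. Fech, which encodes ferrochelatase, the enzyme that sets iron into haem, read 125, 186 and 97.5 CPM on d14 and 428, 426 and 405 CPM on d21 (log2 fold change 1.62 ± 0.24, adjusted p = 0.000372). The 3 d21 libraries lay close together, above all of d14. Alas2, the erythroid enzyme of the first step of haem synthesis, read 193, 573 and 178 CPM on d14 and 1423, 1469 and 1256 CPM on d21 (log2 fold change 2.14, adjusted p = 0.0282). Slc25a37, the mitochondrial iron importer mitoferrin, read 181, 374 and 107 CPM on d14 and 1142, 957 and 942 CPM on d21 (adjusted p = 0.00341). The calls of Fech, Cpox, Urod and Slc25a37 were kept whichever library was left out, and that of Alas2 was lost without replicate 1 of d21, 1 of d14 or 3 of d14. Tfrc, the transferrin receptor, which other dividing cells also use, rose less (log2 fold change 0.85 ± 0.27, adjusted p = 0.0373).

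Of 14 genes of the red cell membrane and surface, 10 were higher. Without replicate 1 or 3 of d14 2 were, and without replicate 1 of d21 5. In all 14 the lowest d21 library stood above the highest d14 library, as it did in 18.5% of all genes tested. In 16.1% of all genes the d21 libraries stood wholly below those of d14. Epb41, which encodes protein 4.1 of the membrane skeleton, read 117, 208 and 92.0 CPM on d14 and 552, 614 and 540 CPM on d21 (log2 fold change 2.03 ± 0.38, adjusted p = 0.00190). Slc4a1, which encodes the anion exchanger band 3, had the largest fitted change of the group, 2.65 ± 0.92, with 230.3, 612 and 150.3 CPM on d14 and 2296, 2133 and 1824 CPM on d21 and missed the threshold (adjusted p = 0.0517). Xpo7, an exportin of maturing erythroblasts, read 76.4, 142 and 47.3 CPM on d14 and 334, 268 and 485 CPM on d21 (adjusted p = 0.000704).

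Of 5 regulators 1 passed. Epor, the erythropoietin receptor, read 25.1, 54.3 and 22.0 CPM on d14 and 172, 129 and 92.5 CPM on d21 (log2 fold change 1.96 ± 0.56, adjusted p = 0.0235). Gata1 read 24.4, 46.6 and 20.0 CPM on d14 and 101, 87.5 and 98.7 CPM on d21 and Klf1 23.8, 61.9 and 22.3 CPM on d14 and 106, 76.6 and 141 CPM on d21. Both factors of red cell transcription had no overlap between the days, and neither passed (adjusted p = 0.0960 for Gata1 and 0.152 for Klf1). Against d10, 48 of the 49 genes were higher on d21, with a median of 2.85, and all 5 regulators passed. Of all genes tested, 21.7% were higher and 21.8% lower against d10.

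Promoters of the list are shown because GATA1 acts through GATA motifs and the list rose as a group. Of the 49 genes, 35 had a RefSeq promoter in the table used (build GRCm38.p6), 48 promoters in all. Within the 250 bases before the start, AGATAA or TGATAA occurred on either strand in 18 of 48 (37.5%), against 1552 of 15338 promoters (10.1%) of all genes tested. The KLF1-type motif CCACACCC occurred in 1 of 48 (2.08%), against 3.42% of all. GATA letters were also in 6 of 21 promoters of the specific and gelatinase granule list (28.6%) and in 2 of 16 of the osteoblast list (12.5%). The 200 bases before the start are given for the 4 members with the smallest adjusted p whose single promoter holds the GATA letters in that stretch, 5′ to 3′ on the gene's strand, with the motif of either strand in capitals.
Cpox (chr16:58670008-58670207, + strand): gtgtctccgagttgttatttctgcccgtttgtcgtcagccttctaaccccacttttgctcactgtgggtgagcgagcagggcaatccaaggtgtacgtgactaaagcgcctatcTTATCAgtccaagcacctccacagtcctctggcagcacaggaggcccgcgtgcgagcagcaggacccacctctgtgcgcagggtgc
Rhag (chr17:40810949-40811148, + strand): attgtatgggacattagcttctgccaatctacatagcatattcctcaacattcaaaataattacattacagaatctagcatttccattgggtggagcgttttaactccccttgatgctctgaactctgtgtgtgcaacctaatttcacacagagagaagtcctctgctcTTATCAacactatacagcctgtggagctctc
Epor (chr9:21963577-21963776, - strand): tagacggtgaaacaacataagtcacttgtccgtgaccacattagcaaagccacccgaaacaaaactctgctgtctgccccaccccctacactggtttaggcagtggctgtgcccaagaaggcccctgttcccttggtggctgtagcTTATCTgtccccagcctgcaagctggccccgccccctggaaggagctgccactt
Rhd (chr4:134864336-134864535, + strand): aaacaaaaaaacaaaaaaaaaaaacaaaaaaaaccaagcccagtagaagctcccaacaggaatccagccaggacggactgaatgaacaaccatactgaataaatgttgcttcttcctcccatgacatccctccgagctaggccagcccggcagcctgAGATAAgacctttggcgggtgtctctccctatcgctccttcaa
The capitals lie 86 bases before the start in Cpox, 31 in Rhag, 54 in Epor and 43 in Rhd. Rhag and Rhd, which encode proteins of the Rhesus complex, had log2 fold changes of 2.27 ± 0.62 and 2.17 ± 0.63, and Rhag read 19.8, 46.3 and 13.7 CPM on d14 and 166, 103 and 115 CPM on d21. A match of letters is a description of the sequence and not a site of binding.

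Genes of the cell cycle were the most complete group: all 54 tested were higher on d21 (100%), with a median log2 fold change of 1.45. In each of the 6 fits without 1 library 53 were higher. In 53 of 54 the lowest d21 library stood above the highest d14 library, against 18.5% of all genes tested. The list averaged a log2 CPM of 5.07, 5.68 and 5.13 in the d14 libraries and 6.96, 6.57 and 6.81 in the d21 libraries. On d3 to d10 it was 5.75, 5.28, 5.40 and 4.83 (means of 3), so that d21 held the highest level of the 6 days, above d3.

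Mki67, the gene of the Ki-67 protein of dividing cells, read 265, 445 and 219 CPM on d14 and 1628, 1070 and 1338 CPM on d21 (log2 fold change 2.12 ± 0.27, adjusted p = 0.000190), a 4.34-fold rise. All 23 genes of mitosis were higher. Kif23, a kinesin of the last step of cell division, read 30.7, 38.0 and 27.7 CPM on d14 and 95.2, 73.7 and 97.9 CPM on d21 (adjusted p = 0.000136), and Kif11, a kinesin of the spindle, rose with a log2 fold change of 1.80 ± 0.24. Top2a, the topoisomerase of chromosome separation, read 120.2, 188 and 120.5 CPM on d14 and 539.9, 326 and 495 CPM on d21 (adjusted p = 0.000267). Cenpf, of the kinetochore, rose with a log2 fold change of 1.82.

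All 20 genes of DNA replication and all 11 of the cyclins, Cdk1 and transcription factors were higher as well. Mcm5, of the replicative helicase, read 73.0, 108 and 84.9 CPM on d14 and 288, 226 and 216 CPM on d21 (log2 fold change 1.46 ± 0.20, adjusted p = 0.000267). Rrm2, which encodes a subunit of ribonucleotide reductase, rose with a log2 fold change of 1.63. Ccnb2, a mitotic cyclin, read 32.8, 61.4 and 40.1 CPM on d14 and 161, 137 and 139 CPM on d21 (log2 fold change 1.70 ± 0.21), and Foxm1, a factor of mitotic transcription, rose with a log2 fold change of 1.27 (adjusted p = 0.000190). E2f factors differed in size. E2f2, a family member that is abundant in erythroblasts, read 77.5, 168 and 63.5 CPM on d14 and 558, 519 and 392 CPM on d21 (log2 fold change 2.25 ± 0.49), E2f8 rose with a log2 fold change of 2.05 ± 0.31 and E2f1 with 1.18 ± 0.18. The difference between these family members was not tested. Which cells divided cannot be told apart in bulk tissue. Among the d14 libraries, this list was highest in replicate 2. So were the erythroid, azurophil granule, specific granule, B cell precursor, monocyte and macrophage, megakaryocyte and muscle lists.

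Promoters of the cell cycle list are shown because mitotic genes share CCAAT boxes and the cell cycle homology region (CHR). Of 54 genes 44 had a promoter in the table, 48 in all. CCAAT occurred on either strand in 37 of 48 (77.1%), against 34.5% of all promoters, and the CHR letters TTTGAA or TTCGAA on either strand in 16 of 48 (33.3%), against 12.7%. E2F letters (TTCCCGCC, TTTGGCGC or TTTCGCGC) were in 7 (14.6%), against 4.16%. GATA letters were in 4 (8.33%), near the share of all promoters. The same 200 bases are given for the 4 members with the smallest adjusted p that hold both CHR and CCAAT letters, which are in capitals.
Mki67 (chr7:135716380-135716579, - strand): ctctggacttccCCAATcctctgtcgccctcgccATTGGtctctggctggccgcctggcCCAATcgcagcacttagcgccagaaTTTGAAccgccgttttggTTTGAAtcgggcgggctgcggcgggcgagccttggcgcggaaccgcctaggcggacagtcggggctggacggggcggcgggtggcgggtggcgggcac
Ccnb2 (chr9:70421555-70421754, - strand): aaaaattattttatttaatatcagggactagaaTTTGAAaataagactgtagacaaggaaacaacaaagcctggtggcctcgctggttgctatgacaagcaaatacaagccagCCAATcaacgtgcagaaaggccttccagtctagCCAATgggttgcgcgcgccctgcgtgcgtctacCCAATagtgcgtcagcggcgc
Kif11 (chr19:37376182-37376381, + strand): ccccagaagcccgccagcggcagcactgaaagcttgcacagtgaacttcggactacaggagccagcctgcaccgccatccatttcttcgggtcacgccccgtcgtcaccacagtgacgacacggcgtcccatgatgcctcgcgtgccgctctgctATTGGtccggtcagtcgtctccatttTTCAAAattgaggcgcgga
Top2a (chr11:99024190-99024389, - strand): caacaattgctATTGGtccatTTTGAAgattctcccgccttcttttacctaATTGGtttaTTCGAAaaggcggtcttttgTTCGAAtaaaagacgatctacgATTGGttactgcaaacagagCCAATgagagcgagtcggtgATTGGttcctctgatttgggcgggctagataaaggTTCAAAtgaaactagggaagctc
The Top2a stretch holds 5 CCAAT boxes and 4 CHR matches, Ccnb2 3 and 1, Mki67 3 and 2, and Kif11 1 of each.

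**Figure D3:**
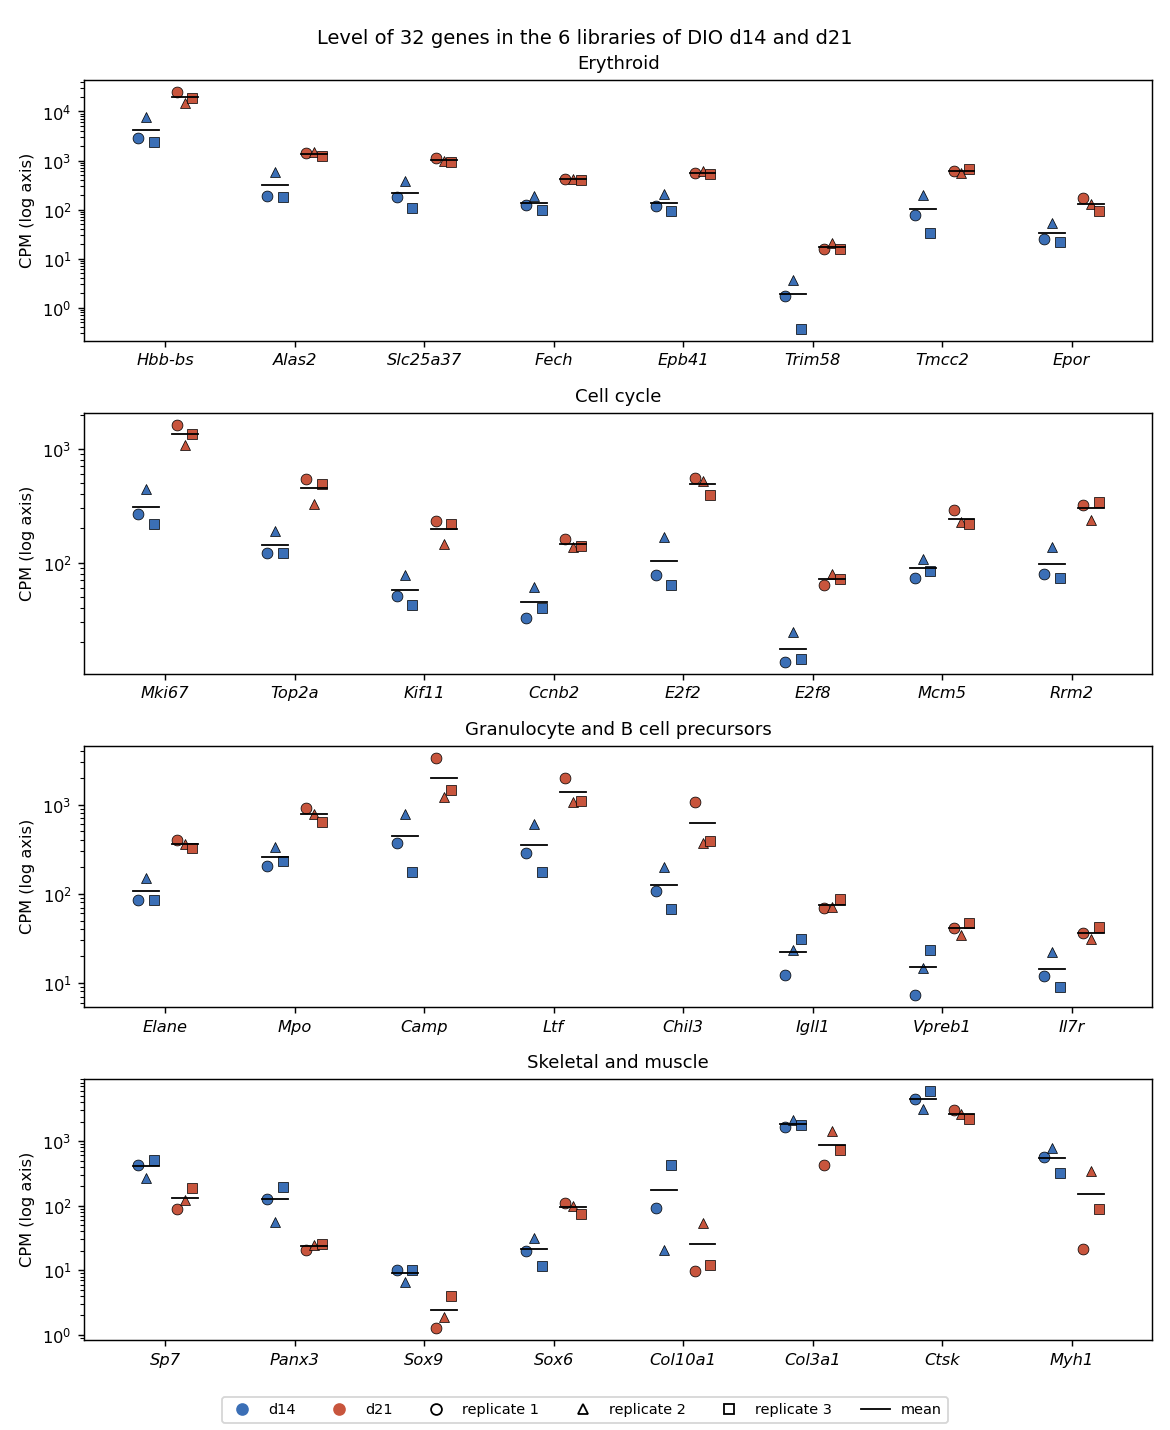
Level in CPM (log axis) of 32 genes in each of the 3 libraries of d14 (blue) and d21 (red), with the mean as a line and the replicate number as the symbol. Erythroid and cell cycle genes do not overlap between the days, whereas Col10a1 and Myh1 do.

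Granule genes of developing neutrophils rose in part. Of 11 azurophil granule and promyelocyte genes, 8 were higher (72.7%, against 10.6% of all genes) and none lower, with a median of 1.64. In 10 of the 11 the d21 libraries stood wholly above those of d14, against 18.5% of all genes tested, and in Cd63, a granule and lysosome membrane gene that many cells express and that was named after its values were seen, wholly below (log2 fold change -0.63, adjusted p = 0.0561). Elane, which encodes neutrophil elastase, read 85.9, 151 and 85.3 CPM on d14 and 406, 360.4 and 322 CPM on d21 (log2 fold change 1.76 ± 0.46, adjusted p = 0.0144). Mpo, which encodes myeloperoxidase, read 206, 334 and 231 CPM on d14 and 917, 788 and 642 CPM on d21 (log2 fold change 1.60 ± 0.49, adjusted p = 0.0300). Ctsg, which encodes cathepsin G, and Ms4a3, a gene of granulocyte and monocyte progenitors, rose with log2 fold changes of 1.64 and 1.87. Serpinb1a, an inhibitor of these proteases, read 33.6, 65.6 and 28.8 CPM on d14 and 182, 89.2 and 130.3 CPM on d21 (adjusted p = 0.00152), and its call was kept whichever library was left out. Prss57 shares 40.7% of its exon length with a gene on the other strand. Since the strand setting of the counting is not given in the sources used here, its rise of 1.78 is uncertain.

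Of 25 genes of the specific and gelatinase granules, 13 were higher (52.0%, against 10.6% of all genes) and none lower, with a median of 1.81. Camp, which encodes cathelicidin, read 367, 777 and 174 CPM on d14 and 3347, 1231 and 1449 CPM on d21 (log2 fold change 2.19 ± 0.68, adjusted p = 0.0314). Ltf, which encodes lactoferrin, read 289, 604 and 174 CPM on d14 and 1987, 1058 and 1092 CPM on d21 (adjusted p = 0.0428). Replicate 1 was the highest d21 library for both, and replicate 2 the highest of d14. Chil3, a chitinase-like gene, rose with a log2 fold change of 2.30 ± 0.52, Fcnb, which encodes ficolin B, with 2.19 ± 0.50, Lcn2, which encodes lipocalin 2, with 1.98 ± 0.59 and Orm1 with 1.81 ± 0.40. S100a8 and S100a9, the calprotectin genes, rose with log2 fold changes of 1.90 and 1.93. Mature neutrophils express these genes as well, so their rise does not tell precursors from mature cells. The whole specific and gelatinase granule list already averaged a log2 CPM of 4.74 on d3, against 4.90 on d14 and 6.59 on d21. Without replicate 1 of d21 1 call was left in each granule list, Serpinb1a and Fcnb. Without replicate 1 or 3 of d14 2 azurophil and 3 specific granule calls were left, whereas both medians kept their sign in the 6 fits without 1 library. Stfa2, a stefin gene with near-identical copies, had 0, 3 and 4 counts on d14 and 19, 8 and 14 counts on d21, so its call (adjusted p = 0.0267) rests on few reads.

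Of 28 genes of the mature neutrophil and of inflammation, 4 were higher (14.3%, against 10.6% of all genes) and 1 was lower. The median was -0.10, and its sign changed under some alternatives. Il1r2, a decoy receptor of interleukin 1, read 7.74, 10.1 and 8.38 CPM on d14 and 91.0, 22.0 and 7.60 CPM on d21, so replicate 3 lay at the level of d14 (adjusted p = 0.0162). Osm, Trem1 and Slfn4 rose with log2 fold changes of 1.54, 1.38 and 1.01, each with its highest value in replicate 1. Ptgs2, which encodes the prostaglandin synthase COX-2, was lower (log2 fold change -1.57 ± 0.49, adjusted p = 0.0343). The calls of these 5 genes were each lost without at least 1 library. Tnf, a gene named by the study, read 4.75, 4.62 and 1.80 CPM on d14 and 3.58, 1.89 and 4.53 CPM on d21 (adjusted p = 0.907).

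Among genes of eosinophils, basophils and mast cells, 2 of 18 were higher (11.1%, near the 10.6% of all genes). Hdc, which encodes histidine decarboxylase, read 25.1, 36.9 and 23.2 CPM on d14 and 211, 74.5 and 49.3 CPM on d21 (log2 fold change 1.98 ± 0.42, adjusted p = 0.00472), with replicate 1 far above the others. Mcpt8, a protease of basophils, rose with a log2 fold change of 1.54 ± 0.44. Epx and Prg2, the eosinophil granule genes, had no overlap between the days and missed the threshold (adjusted p = 0.0801 and 0.0965).

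Of 37 monocyte and macrophage genes, 3 were higher (8.11%) and 1 was lower, near or under the share of all genes, and the median was 0.09. Ly6c2, of inflammatory monocytes, read 86.1, 126 and 63.2 CPM on d14 and 375, 192 and 237 CPM on d21 (log2 fold change 1.54 ± 0.48, adjusted p = 0.0341). Cybb, an oxidase subunit of neutrophils and monocytes, rose with a log2 fold change of 1.05. Itgam rose with a log2 fold change of 0.85, but 68.7% of its exon length is shared with another gene on its strand. Cd68, a lysosomal gene of macrophages and osteoclasts, was lower (log2 fold change -0.66 ± 0.22, adjusted p = 0.0477). Of 28 genes of dendritic cells and MHC class II, 1 was lower (3.57%, under the 9.03% of all genes) and none higher. The lower one was Batf3 (log2 fold change -1.07 ± 0.35). Ptprc, which encodes CD45 of all leukocytes, read 177, 196 and 131 CPM on d14 and 269.5, 158 and 269.5 CPM on d21 (log2 fold change 0.47 ± 0.25, adjusted p = 0.196), and the days overlapped in replicate 2 of d21. Against d10 the same gene was higher (log2 fold change 1.73 ± 0.26, adjusted p = 7.88e-05).

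B cell precursor genes rose in part. Of 18, 6 were higher (33.3%, against 10.6% of all genes) and none lower, with a median of 0.99. In 14 the d21 libraries stood wholly above those of d14, against 18.5% of all genes. Igll1, of the surrogate light chain of the pre-B cell receptor, read 12.3, 23.6 and 31.4 CPM on d14 and 68.7, 71.0 and 86.4 CPM on d21 (log2 fold change 1.75 ± 0.47, adjusted p = 0.0172). Il7r, the interleukin 7 receptor that early B cells depend on, read 11.8, 22.0 and 9.06 CPM on d14 and 36.7, 30.9 and 42.3 CPM on d21 (log2 fold change 1.36 ± 0.33, adjusted p = 0.00931). Ebf1, a factor that commits cells to the B lineage, Blnk, an adaptor of B cell receptor signals, and Akap12 rose with log2 fold changes of 0.74, 0.94 and 0.87. These 3 calls were kept whichever library was left out, but which cells made this RNA cannot be told in bulk tissue. On d3 the list already summed to 332, 283 and 256 CPM at a mean log2 CPM of only 0.95. Some members were thus abundant while most were low. Vpreb1, the partner of Igll1, rose with a log2 fold change of 1.44 ± 0.43. Rag1, of receptor gene recombination, read 8.40, 16.7 and 5.78 CPM on d14 and 13.5, 11.9 and 43.2 CPM on d21, was highest in replicate 3 and did not pass (adjusted p = 0.188). Against d10, 16 of the 18 were higher, with a median of 2.81, where 21.7% of all genes were higher.

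Of 23 mature B cell genes 1 was higher (4.35%), Pou2af1, a coactivator of B cells (24.3, 47.0 and 29.7 CPM on d14 and 67.1, 73.7 and 105 CPM on d21, log2 fold change 1.28 ± 0.24). The median was 0.61, and against d10 it was 2.2 with 21 of 23 higher, where 21.7% of all genes were higher. Of 15 plasma cell genes, 3 were lower (20.0%, against 9.03% of all genes) and 1 was higher (6.67%), whereas the median was 1.08 and 11 of 15 had a fold change above 0. No lower call was left without replicate 3 of d14. The lower ones were Fkbp11 (log2 fold change -1.30), a chaperone, Prdm1 (log2 fold change -1.16) and Sdc1 (log2 fold change -0.68), all of which other secretory or stromal cells also use. Derl3 was higher (log2 fold change 1.37) at under 4 CPM. Ighg2c, an immunoglobulin gene, read 8.90, 13.2 and 9.17 CPM on d14 and 15.3, 20.4 and 37.5 CPM on d21 and missed the threshold (adjusted p = 0.0591).

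Of 26 T cell genes tested, none was higher and 2 were lower (7.69%, under the 9.03% of all genes). These were Thy1 (log2 fold change -0.84 ± 0.25) and Tcf7 (log2 fold change -0.91 ± 0.29), which stromal cells and osteoblasts also express. No T cell gene was lower without replicate 1 or 3 of d21, 1 was in each fit without a d14 library, and 2 were without replicate 2 of d21. Cd3e, of the T cell receptor complex, read 1.16, 1.48 and 1.85 CPM on d14 and 1.79, 2.00 and 2.19 CPM on d21 (log2 fold change 0.41 ± 0.63, adjusted p = 0.681), and Lck, its kinase, read 12.2, 15.3 and 11.4 CPM on d14 and 18.9, 14.9 and 19.1 CPM on d21 (log2 fold change 0.44 ± 0.39, adjusted p = 0.443). Of 20 NK and cytotoxic genes none changed, with a median of 0.01. Ccl5 read 14.7, 15.4 and 14.6 CPM on d14 and 14.3, 18.5 and 14.6 CPM on d21 (log2 fold change 0.09 ± 0.30) and Cxcl16 27.9, 30.5 and 23.3 CPM on d14 and 22.5, 23.2 and 22.6 CPM on d21 (log2 fold change -0.26 ± 0.18), and neither passed. Ifng had 6, 8 and 5 counts on d14 and 0, 1 and 1 on d21 and was not tested.

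The interferon list held 4 higher genes of 37 (10.8%, near the 10.6% of all genes) and 1 lower (2.70%, against 9.03%). Without replicate 3 of d14 1 was higher. Rsad2, which encodes viperin, rose most, with 39.0, 67.8 and 26.0 CPM on d14 and 202, 161 and 209 CPM on d21 (log2 fold change 2.11 ± 0.42, adjusted p = 0.00317). Cmpk2, Isg15 and Oas3 rose with log2 fold changes of 1.32, 1.45 and 1.24. Oasl2 was lower (log2 fold change -1.12), and the list median was -0.04.

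Blood stem and progenitor genes went both ways. Kit, the receptor of stem cell factor, rose (17.6, 21.0 and 17.5 CPM on d14 and 35.9, 44.1 and 34.9 CPM on d21, log2 fold change 1.03 ± 0.25, adjusted p = 0.0101), as did Tal1 (log2 fold change 1.47) and Lmo2 (log2 fold change 1.14), both partners of Gata1. Cd34 and Procr, which endothelium also expresses, fell with log2 fold changes of -0.87 and -1.23, and Hoxa9, also a gene of limb mesenchyme, fell with one of -0.76. In all, 3 of 21 genes were higher (14.3%, against 10.6% of all genes) and 3 lower (14.3%, against 9.03%). Of 21 megakaryocyte genes 2 were higher (9.52%, under the share of all genes), Fli1 (log2 fold change 0.60) and Selp (log2 fold change 0.74), and Pf4, which encodes platelet factor 4, read 75.8, 97.0 and 43.8 CPM on d14 and 119.8, 74.2 and 90.2 CPM on d21.

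Of 16 marrow stroma genes 3 were lower (18.8%, against 9.03% of all genes) and 1 was higher, with a median of -0.22. Without replicate 1 or 3 of d21, or 1 or 3 of d14, 1 was lower. Cxcl12, the chemokine that retains blood-forming cells, read 1885, 1765 and 1672 CPM on d14 and 1815, 1707 and 1577 CPM on d21 (log2 fold change -0.06 ± 0.19, adjusted p = 0.849). Lepr, which marks the stromal cells that make it, had a log2 fold change of -0.05 ± 0.30. Both values overlapped between the days. Against d10 Cxcl12 was higher (log2 fold change 1.08 ± 0.20, adjusted p = 0.000398), with a mean of 1774 ± 107 CPM (SD, n = 3) on d14 already. Vcam1, an adhesion molecule of stroma and macrophages, was the member that rose (145, 162 and 117 CPM on d14 and 359, 234 and 214 CPM on d21, log2 fold change 0.93 ± 0.20, adjusted p = 0.00460). Snai2, Pdgfra and Nes were lower (log2 fold change -1.45, -0.60 and -0.70).

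Vessel genes were lower in part. Of 32 endothelial genes, 6 were lower (18.8%, against 9.03% of all genes) and none higher, and 14 were lower without replicate 2 of d21. Without replicate 1 of d21 or replicate 3 of d14 2 were lower. Aplnr, the apelin receptor of sprouting vessels, read 140.2, 117 and 212 CPM on d14 and 46.2, 75.8 and 74.1 CPM on d21 (log2 fold change -1.25 ± 0.21, adjusted p = 0.000770). Egfl7 fell with a log2 fold change of -0.84, and both calls were kept whichever library was left out. Cdh5 and Pecam1, expressed by all endothelium, had log2 fold changes of -0.31 ± 0.20 and -0.30 ± 0.15 and did not pass. Of 18 pericyte and smooth muscle genes 3 were lower (16.7%, against 9.03% of all genes). Among them were Rgs5 (log2 fold change -0.92 ± 0.23) and Mcam (log2 fold change -0.73 ± 0.19). None was lower without replicate 1 of d21, 1 without replicate 3 of d14 and 10 without replicate 2 of d21.

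**Figure D4:**
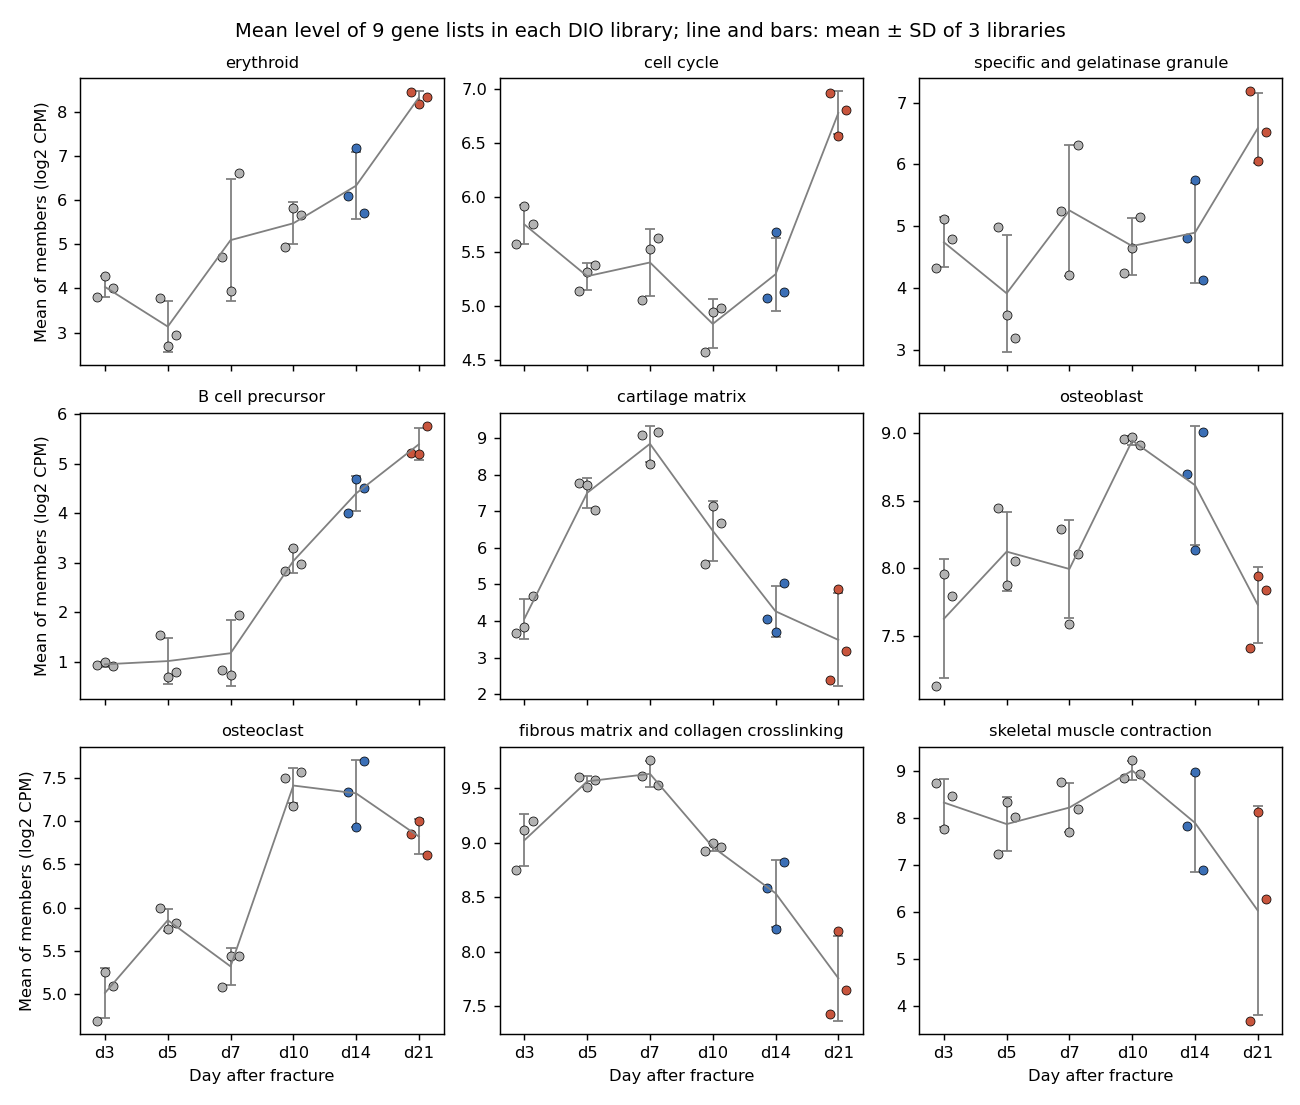
Mean log2 CPM of the tested members of 9 lists in each of the 18 DIO libraries by day after fracture, with the mean and SD of 3 libraries (grey for d3 to d10, blue for d14, red for d21). The erythroid and cell cycle lists are highest on d21, the cartilage list has fallen by d14, and the muscle list spreads most on d21.

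Of 22 cartilage matrix genes none passed between d14 and d21, with a median of -0.63. Against d10, 18 of 22 were lower with a median of -3.23, where 21.8% of all genes were lower. Col2a1, the main collagen of cartilage, read 194, 125 and 607 CPM on d14 and 49.7, 514 and 119.6 CPM on d21 (log2 fold change -0.44 ± 0.78, adjusted p = 0.726). Replicate 2 of d21 held more than replicates 1 and 2 of d14. Acan, which encodes aggrecan, read 30.5, 22.8 and 78.7 CPM on d14 and 4.04, 49.7 and 14.8 CPM on d21 (log2 fold change -0.95 ± 0.64, adjusted p = 0.308) with the same libraries high. Without replicate 2 of d21, 7 of the 22 were lower. Col11a1, which bone cells also make, came nearest to the threshold (log2 fold change -0.83 ± 0.30, adjusted p = 0.0575).

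Regulators of the chondrocyte and genes of its hypertrophy were lower in 7 of 20 (35.0%, against 9.03% of all genes). The count was 3 without replicate 1 of d21 and 4 without replicate 1 or 3 of d14. Besides Sox9 and Panx3, Gli1, a target of hedgehog signals, read 20.6, 11.1 and 27.3 CPM on d14 and 3.64, 9.66 and 5.62 CPM on d21 (log2 fold change -1.64 ± 0.37, adjusted p = 0.00628), and Fgfr3 fell with a log2 fold change of -0.90 ± 0.23. Col10a1, the collagen of hypertrophic cartilage, read 91.5, 20.5 and 420.3 CPM on d14 and 9.59, 53.7 and 12.1 CPM on d21. Its fitted change was large (log2 fold change -2.82 ± 0.95, adjusted p = 0.0450), but the days overlapped in replicate 2 of d21, which stood above replicate 2 of d14, and the call was lost in 4 of the 6 fits without 1 library. Sox6 moved against the list. It read 19.8, 32.1 and 11.4 CPM on d14 and 110.1, 97.4 and 73.7 CPM on d21 (log2 fold change 2.15 ± 0.29, adjusted p = 0.000267), and the call was kept in all 6 of those fits. Sox6 partners Sox9 in cartilage and is also a factor of red cell maturation.

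Osteoblast genes were lower in part. Of 21, 9 were lower (42.9%, against 9.03% of all genes) and none higher, with a median of -0.86. In 13 the d21 libraries stood wholly below those of d14, against 16.1% of all genes. Sp7, which encodes osterix, the factor that commits cells to bone, read 429, 269 and 515 CPM on d14 and 89.6, 121 and 187 CPM on d21 (log2 fold change -1.61 ± 0.32, adjusted p = 0.00323). Dlx3, a homeobox factor of osteoblasts, fell with a log2 fold change of -1.68 ± 0.36 (adjusted p = 0.00513), and both calls were kept whichever library was left out. Ibsp, which encodes bone sialoprotein, read 3695, 1792 and 5152 CPM on d14 and 1367, 1526 and 1522 CPM on d21 (log2 fold change -1.27 ± 0.39, adjusted p = 0.0328). Ifitm5, Kazald1 and Cgref1 fell with log2 fold changes of -1.22, -1.10 and -1.18, each highest in replicate 3 of d14, and Ifitm5 shares 29.7% of its exon length with a gene on its strand. Col1a1, the main collagen of bone, read 29330, 19640 and 38110 CPM on d14 and 11420, 22840 and 14170 CPM on d21 (log2 fold change -0.85 ± 0.34) and missed the threshold (adjusted p = 0.0908). Without replicate 3 of d14 the count of lower osteoblast genes was 2, without replicate 1 of d21 3, without replicate 3 of d21 5 and without replicate 2 of d14 14.

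The osteocyte list, of cells buried in bone, held 1 lower gene of 10 (10.0%, near the 9.03% of all genes). It was Dkk1, a WNT inhibitor (89.7, 72.4 and 97.5 CPM on d14 and 18.9, 25.9 and 61.5 CPM on d21, log2 fold change -1.28 ± 0.33). None was lower without replicate 1 of d21 or replicate 3 of d14. Dmp1 and Phex had log2 fold changes of -0.66 ± 0.38 and -0.71 ± 0.41 and did not pass, and Sost, the sclerostin gene of mature osteocytes, read 92.1, 120 and 136 CPM on d14 and 96.0, 189.7 and 161 CPM on d21 (adjusted p = 0.429). Of 12 mineralization genes 4 were lower (33.3%, against 9.03% of all genes). The count was 1 without replicate 1 or 3 of d21 and 2 without replicate 1 or 3 of d14. Alpl, which encodes the alkaline phosphatase that frees phosphate, read 791, 552 and 1280 CPM on d14 and 239.6, 527 and 363 CPM on d21 (log2 fold change -1.22 ± 0.35, adjusted p = 0.0241), Mgp, an inhibitor of mineralization, fell with a log2 fold change of -1.13 ± 0.26, Smpd3 with -1.24 and Slc20a2 with -0.59. Slc20a1, a phosphate importer of many cells, moved the other way (80.5, 109 and 78.5 CPM on d14 and 194, 158 and 161 CPM on d21, log2 fold change 0.94 ± 0.19, adjusted p = 0.00294).

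The osteoclast list was lower in 6 of 23 (26.1%, against 9.03% of all genes), with a median of -0.56. Ocstamp, a gene of osteoclast fusion, read 62.5, 35.9 and 96.2 CPM on d14 and 27.7, 37.3 and 19.9 CPM on d21 (log2 fold change -1.20 ± 0.30, adjusted p = 0.0121), and Oscar, an osteoclast receptor, fell with a log2 fold change of -0.73 ± 0.20. Tnfrsf11a, which encodes RANK, the receptor that drives osteoclast formation, fell with a log2 fold change of -0.61 ± 0.19 (adjusted p = 0.0289). Slc9b2 and Ckb fell with log2 fold changes of -0.93 and -0.91. The effector genes were near the threshold or short of it: Ctsk, which encodes cathepsin K, read 4488, 3186 and 5965 CPM on d14 and 3009, 2621 and 2206 CPM on d21 (log2 fold change -0.80 ± 0.29, adjusted p = 0.0572), and Acp5 had a log2 fold change of -0.66 ± 0.29 (adjusted p = 0.119). Dcstamp, the partner of Ocstamp in fusion, was the sixth, with -0.88. No call was left without replicate 3 of d14, 1 was left without replicate 1 of d14 or 3 of d21 and 2 without replicate 1 of d21, whereas 10 were lower without replicate 2 of d21 and 12 without replicate 2 of d14. Tnfsf11, which encodes RANKL, read 10.5, 8.0 and 17.2 CPM on d14 and 14.8, 14.8 and 7.18 CPM on d21 (log2 fold change 0.04 ± 0.35, adjusted p = 0.948), and its decoy Tnfrsf11b had a log2 fold change of -0.34 ± 0.40. Of the 6 genes of the RANKL, OPG and CSF1 list only Tnfrsf11a passed.

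Fibrous matrix and collagen crosslinking genes gave the highest share of falls of the 38 lists. Of 37, 20 were lower (54.1%, against 9.03% of all genes) and none higher, with a median of -0.80. P3h4, of the complex that modifies collagen in the endoplasmic reticulum, read 127, 75.7 and 171 CPM on d14 and 51.3, 67.7 and 49.2 CPM on d21 (log2 fold change -1.15 ± 0.25). Replicate 2 was the lowest of d14 and the highest of d21. Fkbp10, a collagen chaperone, read 527, 345 and 779 CPM on d14 and 196, 341 and 203 CPM on d21 (log2 fold change -1.16 ± 0.27). P4ha2, a collagen hydroxylase, Loxl2, a crosslinking oxidase, and Pcolce, an enhancer of collagen processing, fell with log2 fold changes of -0.96, -0.83 and -1.17. Col3a1, the collagen of loose and granulation tissue, read 1632, 2115 and 1799 CPM on d14 and 433, 1431 and 722 CPM on d21 (log2 fold change -1.10 ± 0.32, adjusted p = 0.0248). The call of P3h4 was kept whichever library was left out. The count was 3 without replicate 1 of d21, 4 without replicate 3 of d14, 11 without replicate 3 of d21, 13 without replicate 1 of d14 and 31 without replicate 2 of d21.

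Of 24 matrix proteases and inhibitors 7 were lower (29.2%, against 9.03% of all genes) and none higher. None was lower without replicate 1 of d21, 1 without replicate 3 of d14, 2 without replicate 3 of d21, 3 without replicate 1 of d14 and 11 without replicate 2 of d21. Mmp2, a gelatinase of mesenchymal cells, read 1067, 884 and 1227 CPM on d14 and 428, 810.1 and 469 CPM on d21 (log2 fold change -0.90 ± 0.23, adjusted p = 0.0146). Adamts9, Mmp23, Timp1 and Adamts15 fell with log2 fold changes of -0.85, -0.94, -1.20 and -0.70. Of 45 genes of BMP and WNT signalling 13 were lower (28.9%, against 9.03% of all genes) and none higher. The count was 4 without replicate 1 of d21, 6 without replicate 1 or 3 of d14 and 8 without replicate 3 of d21. Wnt16, a ligand of cortical bone, had the largest fall but a low level (2.49, 2.31 and 2.97 CPM on d14 and 0.289, 0.942 and 0.260 CPM on d21, log2 fold change -2.38 ± 0.42). Wnt5a, a ligand of the non-canonical pathway, read 15.9, 10.5 and 13.6 CPM on d14 and 4.68, 6.66 and 7.55 CPM on d21 (log2 fold change -1.08 ± 0.24, adjusted p = 0.00581). Bambi and Smad6, antagonists that BMP signals induce, fell with log2 fold changes of -1.21 ± 0.27 and -1.20 ± 0.31. The calls of Wnt16, Wnt5a and Bambi were kept whichever library was left out.

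Muscle genes had the lowest median of the 38 lists, -1.49, and almost no calls. Of 34, 2 were lower (5.88%, against 9.03% of all genes) and 1 higher (2.94%, against 10.6%). Mb, which encodes myoglobin, read 477, 1108 and 281 CPM on d14 and 20.0, 312 and 143 CPM on d21 (log2 fold change -1.97 ± 0.63, adjusted p = 0.0377) and Myh1, a fast myosin, read 557, 784 and 320.4 CPM on d14 and 21.7, 345 and 88.7 CPM on d21 (log2 fold change -1.87 ± 0.62, adjusted p = 0.0439). Myh7, the slow myosin, was the one that was higher (0.497, 1.42 and 1.32 CPM on d14 and 0.231, 14.6 and 17.8 CPM on d21, log2 fold change 3.32 ± 1.11, adjusted p = 0.0436), through replicates 2 and 3. In each of these 3 the days overlapped. Without replicate 2 of d21 30 of the 34 were lower, and without replicate 1 of d21 none was. The summed level of the list ran from 9692 to 48700 CPM on d14 and from 813 to 24380 CPM on d21. Its part in the fall of genes that muscle shares with other tissues was not tested.

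Of 24 fat cell genes none passed between d14 and d21, and the median was 0.32. Adipoq, which encodes adiponectin, read 65.0, 106 and 96.7 CPM on d14 and 124, 93.0 and 146 CPM on d21 (log2 fold change 0.44 ± 0.34, adjusted p = 0.374). Lipe, a lipase of fat cells, had a log2 fold change of 0.81 ± 0.29 (adjusted p = 0.0604). Against d10 the list was higher in 16 of 24, with a median of 1.22, where 21.7% of all genes were higher.

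Of 79 cytosolic ribosomal protein genes 1 was higher, Rplp2 (log2 fold change 0.65 ± 0.16), and of 11 mitochondrially encoded genes none passed. Of 45 nuclear genes of the respiratory chain 3 were lower, Sdhb, Sdhc and Ndufb5 (log2 fold change -0.58, -0.47 and -0.54). Against d10, 37 of the 45 were lower, where 21.8% of all genes were. Of 30 genes of the secretory pathway 3 were lower and 1 higher. Kdelr3 and Kdelr2, receptors that return proteins to the endoplasmic reticulum, fell with log2 fold changes of -1.08 ± 0.22 and -0.87 ± 0.21, Sec23a, of the vesicle coat, fell with a log2 fold change of -0.69, and Sdf2l1 rose with a log2 fold change of 0.62. Of 24 genes of glycolysis and hypoxia 2 were higher, Ddit4 and Kdm3a, and Tpi1 was lower (log2 fold change -0.85 ± 0.27). Of 17 Schwann cell genes 2 were lower, Egr2 (log2 fold change -1.09) and Mal (log2 fold change -3.14), a myelin gene with 6, 7 and 8 counts on d14 and 0, 2 and 0 counts on d21. Between d14 and d21 the shares called in these lists were near or under those of all genes (10.6% higher and 9.03% lower).

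Of 21 immediate early and heat shock genes 4 were higher (19.05%, against 10.6% of all genes), Dusp1, Btg2, Dnajb1 and Ier2, and Egr2 was lower. Dusp1 and the hypoxia gene Ddit4 separated the d21 libraries from each other. Ddit4, an inhibitor of mTOR signals, read 57.7, 47.8 and 64.9 CPM on d14 and 259, 313 and 54.2 CPM on d21, and Dusp1, a phosphatase of MAP kinases, read 24.3, 31.2 and 20.9 CPM on d14 and 119, 113 and 31.4 CPM on d21. In both, replicates 1 and 2 of d21 were 3-fold or more above replicate 3, which lay among or near the d14 libraries. Other genes with this pattern were looked for after these values were seen, so their choice follows the data and their tests are no independent evidence. In 23 genes, replicates 1 and 2 of d21 both stood more than 1 log2 unit (log2 of CPM + 1) above replicate 3 and all d14 libraries. The same count was 9 for replicates 1 and 3 against the rest and 3 for replicates 2 and 3. Per1, a clock gene, read 54.5, 52.8 and 48.2 CPM on d14 and 363, 393 and 33.1 CPM on d21, and Depp1, a target of FOXO factors, 11.8, 15.7 and 14.3 CPM on d14 and 111, 134 and 12.9 CPM on d21. Fkbp5, a cochaperone of the glucocorticoid receptor, read 39.7, 40.1 and 41.3 CPM on d14 and 152, 138 and 52.3 CPM on d21. Tsc22d3, Sik1, Pim3 and Txnip were ordered the same way. Per1, Fkbp5, Tsc22d3, Ddit4 and Dusp1 are known as genes that glucocorticoids induce. The edgeR fit called Per1 (log2 fold change 2.34 ± 0.52, adjusted p = 0.00611), Depp1 (log2 fold change 2.62), Ddit4 (log2 fold change 1.88, adjusted p = 0.00507) and Dusp1 (log2 fold change 1.79, adjusted p = 0.00351) higher, also without any 1 library, although 1 of 3 mice did not show it. The hour of harvest and the order of handling are not given in the sources used here.

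**Figure D5:**
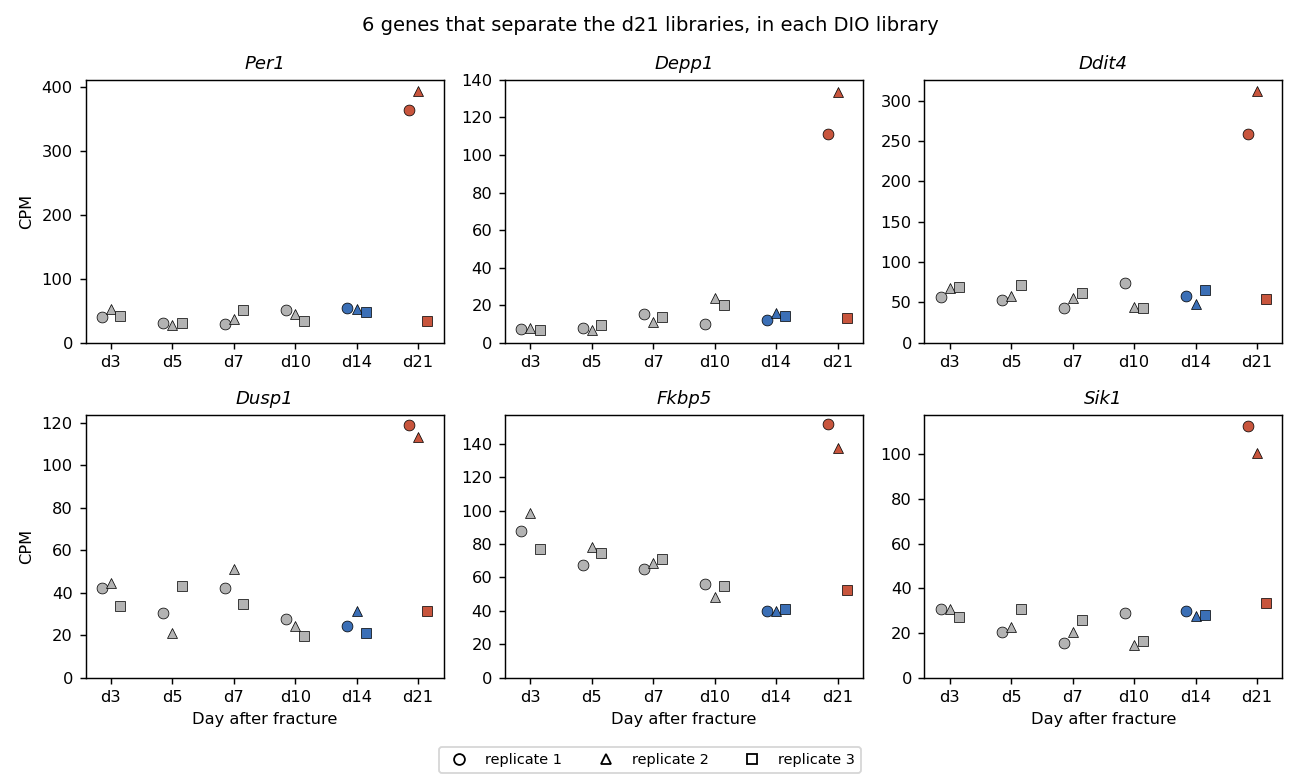
Level in CPM of 6 genes in each of the 18 DIO libraries by day after fracture, with the replicate number as the symbol (blue for d14, red for d21, grey for earlier days). Replicates 1 and 2 of d21 stand above all other DIO libraries for each gene, and replicate 3 of d21 does not.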

How the data were processed

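Total RNA of single calli was made into poly(A) libraries with a stranded kit and sequenced in pairs. The authors demultiplexed reads with bcl2fastq, trimmed them with BBDuk, aligned them to GRCm38 with HISAT2 2.1.0, counted them per gene with HTSeq and deposited raw counts. The HTSeq version and strand setting are not given in the sources used here.

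All further values were derived from the count table (edgeR 4.0.16, R 4.3.3). The 18 DIO libraries of 6 days were fitted together with TMM factors after filterByExpr, without covariates, and days were compared by the two-sided quasi-likelihood F-test with Benjamini-Hochberg adjustment over all 16995 genes (threshold 0.05). CPM values are TMM-scaled. A standard error is the absolute log2 fold change divided by the square root of F. List levels are means of log2 CPM with a prior count of 2. Exon overlaps came from GENCODE M21, which held 42548 of the 43629 genes, and promoters from RefSeq (GRCm38.p6). Replicates did not agree within sampling noise, so none was counted as a duplicate.

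In counts simulated for d21 against d14 with 200 changed genes, the test found 58 of 100 changed 2-fold and 85 of 100 changed 4-fold, with 10 false calls. Alternatives tried were DESeq2 1.42.0, upper-quartile and RLE factors, other filters, a replicate block, other sets of libraries, a 1.5-fold threshold and leaving out each library. The comparison, the 38 lists and their members were chosen with earlier results of these data known. Genes were named by rule: the 12 largest rises and falls among called genes of at least 5 CPM on the higher day without overlap, the 5 members of each list with the smallest adjusted p and those called against their list, and genes the study names. Others, such as the globins, Alas2, Slc4a1, the E2f genes and those with promoters shown, were chosen after their values were seen. Some genes are not reported here.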

Additional observations from a re-analysis of the deposited data

How the results depend on the processing

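The alternatives kept the direction of every list of the report except those with medians near 0. Of 570 medians (38 lists, 15 alternatives for d21 against d14), 560 moved by less than the spread between replicates, and the sign changed in 5 lists: mature neutrophil and inflammation, monocyte and macrophage, NK and cytotoxic, immediate early and heat shock, and secretory pathway. Of the 180 genes named in the report that were called, 43 stayed called under all 15 alternatives and 68 in all 6 fits without 1 library, and none changed direction. What moved was the number of calls. With only the 6 libraries compared, 1676 genes differed, 369 of them lower, and 8 fibrous matrix genes were lower. With a 1.5-fold threshold 389 differed (338 higher and 51 lower), and against d10 3024 (1781 and 1243). That threshold left 9 erythroid, 1 azurophil granule and 2 specific granule genes higher, 2 osteoblast genes and 0 fibrous matrix genes lower. With all 30 libraries in 1 fit, 23 erythroid, 2 azurophil and 6 specific granule genes were higher. Other counts came to between 2919 and 3945 genes, the latter with DESeq2.

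Leaving out 1 library gave 1285 to 4070 genes against d14, 892 to 1890 higher and 393 to 2180 lower. It gave 17 to 42 erythroid, 1 to 8 azurophil granule and 1 to 17 specific granule genes higher, and 2 to 14 osteoblast and 3 to 31 fibrous matrix genes lower. All 54 cell cycle genes but 1 were higher in each of these fits. The cause of these changes was not tested.

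The same replicate number on 2 days marks different mice. Deviations of same-numbered d21 and d14 libraries correlated at -0.0017, 0.153 and -0.084, so the numbers did not pair them. With a replicate block 2919 genes differed (1599 higher and 1320 lower), and 5 specific granule genes were higher.

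Depth was even, and replicates of a day differed by more than sampling noise. Differences between mice therefore add more error to a value than read counts do, except for genes of few reads such as Stfa2, Mal and Ifng. The values after ± do not measure the spread of the d14 and d21 mice alone, since the fit took the spread from all DIO libraries. With only the 6 libraries compared, 1676 genes differed, against 3335 in the main fit.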

Other observations

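Several values lie outside the lists. The pattern of replicates 1 and 2 of d21 was looked for in all 30 libraries. With TMM factors over these, Per1 read 362 and 391 CPM in the pair and at most 82.9 CPM in the other 28, the highest being lean d10 replicate 1. Depp1 read 110.5 and 133 CPM in the pair and 51.2 CPM in that lean library, against a median of 10.6 CPM over the 28. Fkbp5 read 151 and 137 CPM in the pair and 138 CPM in the same lean library, and Tsc22d3 331 and 294 CPM against 218 CPM. Lean d10 replicate 1 therefore stood nearest to the pair in these 4 genes. In the other genes named with this pattern, a different library was the highest of the 28. It was lean d3 replicate 3 for Ddit4, DIO d7 replicate 2 for Dusp1 and lean d5 replicate 2 for Sik1. For Pim3 it was DIO d7 replicate 3, and for Txnip DIO d14 replicate 2. The genes were chosen after their values were seen, and no cause was tested.

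Output genes of the circadian clock differed in the other direction. Dbp read 61.2, 88.9 and 60.3 CPM on d14 and 27.6, 32.3 and 42.7 CPM on d21 (log2 fold change -1.03 ± 0.28, adjusted p = 0.0166) and Tef 199.9, 228 and 178 CPM on d14 and 82.6, 125 and 128 CPM on d21 (-0.85 ± 0.19, adjusted p = 0.00570). In both, all 3 d21 libraries were below all 3 d14 libraries, replicate 3 included. Per3 was lower (-0.76 ± 0.25), with overlap between the days, and Arntl higher (0.77 ± 0.25). Nr1d1, another clock gene, read 15.4, 26.8 and 21.8 CPM on d14 and 24.9, 79.6 and 18.6 CPM on d21. Its fitted change, opposite to those of Dbp, Tef and Per3, did not pass (0.94 ± 0.43, adjusted p = 0.133). The calls of Dbp, Per3 and Arntl were lost in 2, 4 and 5 of the fits without 1 library, and that of Tef in none. They too were chosen after their values were seen. Whether the calli of the days were harvested at the same hour is not given in the sources used here.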
